A study of Mus musculus with 6 samples.

Results

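The genes described here are 10 heat shock chaperones of the cytosol and the mitochondrial matrix: Hsp90aa1, Hsp90ab1, Hspa8, Hspa1a, Hspa1b, Hsph1, Dnaja1, Dnajb1, Hspd1 and Hspe1. They were taken by name from a deposited table of raw read counts, where each name matched 1 row, so the set is 10 of 23505 gene rows. The study sequenced RNA of CD4+ T cells from the liver of wild type mice injured with concanavalin A (ConA), a lectin from plants that stimulates T cells. The ConA group (3 samples) was gavaged with phosphate-buffered saline, and the ConA+SIM group (3 samples) with simvastatin, a statin that blocks cholesterol synthesis, at 30 mg/kg. Gavage ran for 5 days before the lectin, was repeated 1 h before it and given once more 24 h after it, and the sort kept CD3+ NK1.1- CD4+ CD8- cells. Both groups had received ConA, and liver T cells without ConA were not analysed here. The labels give neither the strain, sex and age of the mice nor the time of cell collection, nor whether a sample is 1 mouse or a pool. The spread behind the p-values may therefore be technical.

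Heat shock chaperones help other proteins to fold and keep damaged ones from clumping. In the cytosol, HSP70 proteins bind unfolded stretches with the help of J-domain partners, are reset by nucleotide exchange factors, and hand clients such as kinases and steroid receptors on to HSP90. In the mitochondrial matrix, HSP60 forms a folding chamber that HSP10 closes as a lid. Most cells hold constitutive and inducible forms side by side, and heat shock factor 1 raises the inducible ones by binding repeats of the bases GAA, in alternating orientation, in their promoters. T cells need HSP90 for kinases of the antigen receptor pathway such as Lck, and many chaperone genes are known to be raised when T cells are activated.

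In ConA+SIM, 1 of the 10 chaperone genes rose, Hsp90aa1, the inducible HSP90 gene, by 2.42-fold, and none fell (0 of 10) at an adjusted p under 0.05 in edgeR's quasi-likelihood test. Among all 10509 tested genes, 0.542% rose and 0% fell by the same rule. Its constitutive partner Hsp90ab1 was not called, with a log2 fold change of -0.34 ± 0.28 (SE; edgeR, adjusted p = 0.957). Values were higher in 8 and lower in 2 of the 10, against 48% and 52% of tested genes. On scaled CPM, groups did not overlap for 5 of the 10 genes, Hsp90aa1, Hspa8, Dnaja1, Dnajb1 and Hspe1, against 17.8% of tested genes in either direction. For Hspa8 this held only with the scaling between libraries. All 5 had higher values in ConA+SIM, as did 9.18% of tested genes without overlap. At an unadjusted p under 0.05 there were 6 of the 10 on the higher side, these 5 and Hsph1, against 5.31% of tested genes, and 0 on the lower side, against 3.54%. DESeq2, which gave an adjusted p for 9 of the 10, called 4 higher and 0 lower, where it called 3.31% and 1.84% of all genes with an adjusted p. The median log2 fold change was 0.74 over the 10 genes and -0.041 over all tested genes. The genes were chosen with earlier results of these data known, so these counts describe them and test nothing.

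**Figure D1:**
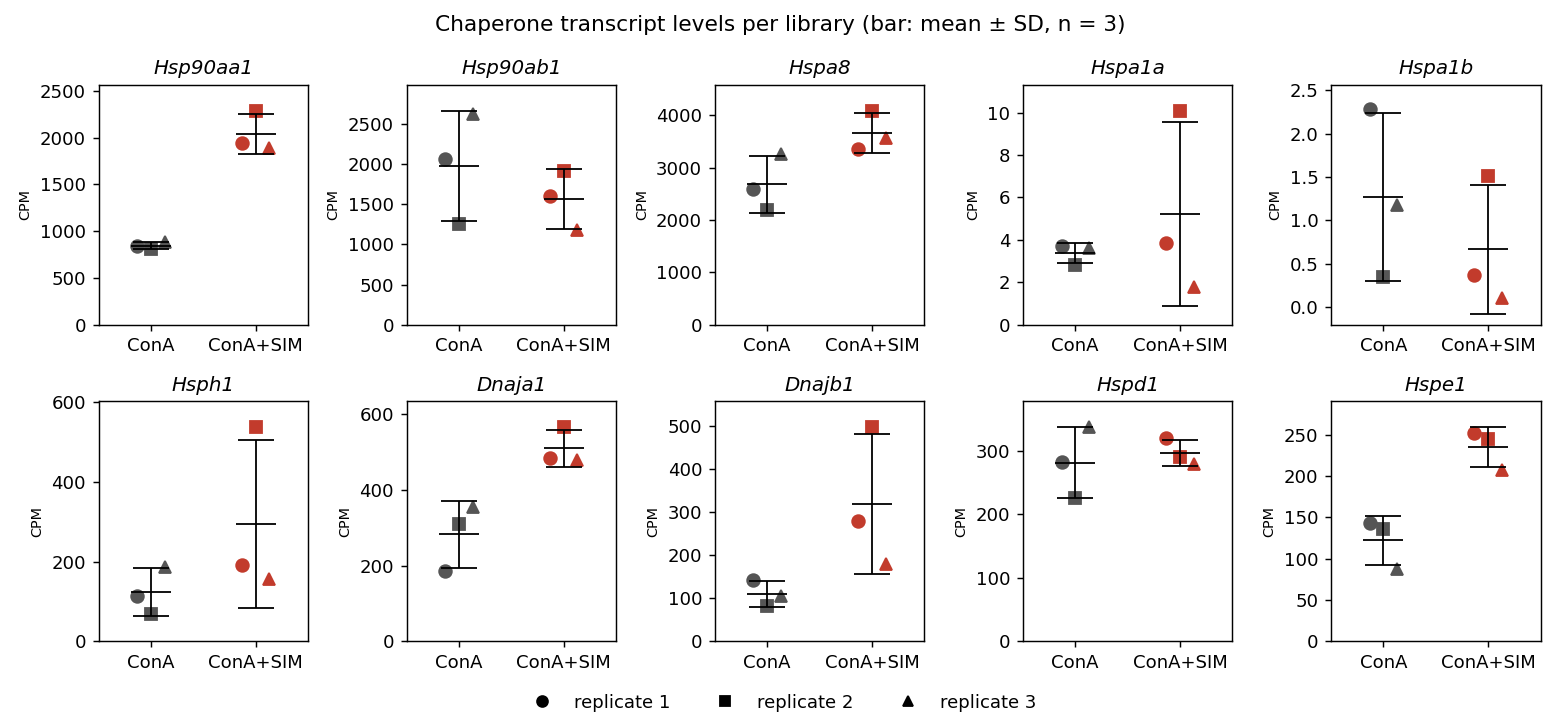
Level in CPM of each of the 10 chaperone genes per library, for ConA (grey) and ConA+SIM (red). Bars give the mean and SD of 3 samples, and CPM are counts scaled by library size and TMM factor. The ConA+SIM points lie above all ConA points for Hsp90aa1, Hspa8, Dnaja1, Dnajb1 and Hspe1 and overlap them for the other genes.

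The promoters of these genes were searched for the letters of heat shock elements near the start site. The short stretches below hold every match found upstream of a start. RefSeq promoter windows on GRCm38, from 250 bases before to 50 after a start, were at hand for 7 of the 10 genes, in 12 windows. Hsp90aa1, Hsp90ab1 and Hspa8 had no window, so the search says nothing about them. The motifs searched were GAANNTTC and TTCNNGAA, which read the same on both strands and may overlap. A match is called 2-unit when it holds 1 of them and 3-unit when both overlap so that GAA, TTC and GAA, or TTC, GAA and TTC, follow each other with 2 bases between them. A 2-unit match was present in at least 1 window of 6 of the 7 genes, against 15.1% of all 32851 windows. A 3-unit match was present in 3 of the 7, Hsph1, Hspd1 and Hspe1, against 0.603% of all windows. The counts are by gene and the shares by window, so they are not on the same scale. Dnaja1 and Hspd1 had several windows each and a match in only 1 of them. The 3-unit matches of Hspd1 and Hspe1 are the same bases. The windows of Dnajb1 held no match, which says only that these letters are absent there. A match is a run of letters and not a measured binding site. In the lines below capitals mark the matched bases, and each stretch is read 5′ to 3′ on the strand of its gene.
Hspa1a, chr17:34972227-34972286, minus strand, match beginning 104 bases upstream: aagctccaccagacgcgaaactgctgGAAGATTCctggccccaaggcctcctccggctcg
Hspa1b, chr17:34959309-34959368, minus strand, match beginning 104 bases upstream: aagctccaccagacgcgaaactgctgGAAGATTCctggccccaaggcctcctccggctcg
Hsph1, chr5:149636351-149636380, minus strand, match beginning 33 or 54 bases upstream, by start site: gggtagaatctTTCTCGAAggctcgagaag
Dnaja1, chr4:40722333-40722362, plus strand, match beginning 124 bases upstream: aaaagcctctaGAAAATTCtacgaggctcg
Hspd1, chr1:55088053-55088082, minus strand, match beginning 144 bases upstream of 1 of its starts: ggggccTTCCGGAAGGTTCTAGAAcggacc
Hspe1, chr1:55088053-55088082, plus strand, match beginning 89 bases upstream: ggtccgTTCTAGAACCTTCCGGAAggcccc

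The lines for Hspd1 and Hspe1 show the same bases read from opposite strands, since the gene pair lies head to head. The lines for Hspa1a and Hspa1b are the same 60 bases at separate places, and their full 300-base windows differed at 4 bases. The 3-unit match of Hsph1 lies downstream of its start, and its sequence is not shown.

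Total counts per library ran from 17549429 to 25031862, so that 0 counts would allow up to 0.118 to 0.175 CPM (3 counts, covering counting error only). No 2 libraries of a group agreed within sampling noise, with chi-square statistics 142 to 298 times their degrees of freedom. ConA+SIM replicate 2 stood apart: tested genes without a count made up 18.4% there and 2.76% to 9.98% elsewhere. T cell markers were present in all libraries, with a summed level over 11 of 12 listed genes of 2606 to 4126 CPM in ConA and 4052 to 4254 CPM in ConA+SIM. Of these genes 0 passed, but they did not move alike. Cd3d, Cd3g and Cd247 had higher values in every ConA+SIM library than in any ConA library, and the other listed genes overlapped. Cd4 stood at 485 to 766 CPM in ConA and 441 to 562 CPM in ConA+SIM, whereas Cd8a reached at most 15.9 CPM. Cd8b1 was at 17.2, 33.1 and 4.64 CPM in ConA and at 21.8, 54.1 and 42.2 CPM in ConA+SIM, with overlapping groups.

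Some markers of other cells also moved with the groups. Of 10 NK cell and ILC1 markers, which summed to 328 to 473 CPM in ConA and 658 to 942 CPM in ConA+SIM, 8 were tested and 0 passed, and the defining gene Ncr1 was at 0 counts in every library. Of 6 erythroid markers (43.8 to 115 and 235 to 343 CPM) 1 of 5 tested passed, and of 6 neutrophil markers (292 to 485 and 583 to 932 CPM) 0 of 5 tested passed, with Ly6g at 0 in every library. The neutrophil sum rested on S100a8 and S100a9, and the median log2 fold change of its tested genes was -0.45. The sums overlapped between groups for 13 Kupffer cell, macrophage and monocyte markers (964 to 2220 and 245 to 1235 CPM), 10 sinusoidal endothelial markers (401 to 2252 and 394 to 755 CPM), 6 of 7 B cell markers (112 to 1251 and 337 to 810 CPM) and 15 hepatocyte markers (154 to 267 and 188 to 344 CPM, Cps1 at 0 in every library). Of these 4 lists 0 genes passed. The 13 immediate early genes, which are induced in cells by tissue dissociation as well as by activation, summed to 7224 to 8437 CPM in ConA and 5362 to 8398 CPM in ConA+SIM, with 0 passing. The part of these cells in the chaperone values was not tested, and in bulk libraries fewer cells of a type and less RNA per cell cannot be told apart.

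Within the HSP90 pair only 1 gene passed. Hsp90aa1 encodes HSP90 alpha, the stress-inducible form (chromosome 12, 110691036 to 110696395, GRCm38, minus strand). It stood at 839.5, 809.9 and 882 CPM in the ConA samples (replicates 1 to 3, an order kept below) and at 1941, 2288 and 1886 CPM in the ConA+SIM samples. The SD of the ConA samples was 4.29% of their mean, the tightest of the 10 genes in that group, and the lowest ConA+SIM sample was 1004 CPM above the highest ConA sample. The level rose from 844 ± 36.2 to 2038 ± 218 CPM (SD, n = 3). On the log2 scale the fold change was 1.27 ± 0.15 (SE; edgeR, adjusted p = 0.0301). By its p-value it ranked 4 among the tested genes.

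Hsp90ab1 encodes HSP90 beta, the constitutive form (chromosome 17, 45567778 to 45573261, minus strand). Its values were 2067, 1256 and 2621 CPM in ConA and 1607, 1918 and 1176 CPM in ConA+SIM. The groups overlapped, with the highest value in ConA replicate 3 and the lowest in ConA+SIM replicate 3, and the log2 fold change was -0.34 ± 0.28 (edgeR, adjusted p = 0.957). It ran from -0.60 without ConA replicate 2 to -0.061 without ConA replicate 3. Whether the 2 genes differed in their response was examined by their ratio.

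The ratio of the HSP90 genes within a library does not depend on how libraries are scaled. Per transcript length, Hsp90aa1 was at 0.312, 0.495 and 0.258 of the level of Hsp90ab1 in the ConA samples, and at 0.928, 0.916 and 1.23 of it in the ConA+SIM samples. Per length, alpha was thus below beta in all ConA libraries and above it in 1 ConA+SIM library. Before division by length, alpha had fewer counts than beta in every ConA library and more in every ConA+SIM library. The ConA+SIM counts were 36360, 39217 and 35284 for alpha and 30095, 32873 and 21997 for beta. The level of the ratio depends on how reads with several matches were counted. The mean log2 ratio was -1.55 ± 0.48 in ConA and 0.022 ± 0.24 in ConA+SIM (SD, n = 3), a difference of 1.57. The exact two-sided permutation test gave p = 0.1, the smallest that 3 against 3 samples allow, and 0.2 after adjustment over the 6 ratios computed. The difference ran from 1.37 to 1.84 when each library was left out, and it was 1.67 with the trend of counts with transcript length removed.

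The adjusted p of Hsp90aa1 depended on having all 6 libraries. The call ended in each of the 6 fits with 1 library left out (ConA replicates 1 to 3 and ConA+SIM replicates 1 to 3), with log2 fold changes of 1.18 to 1.33 and adjusted p from 0.0622 to 0.244, while its direction held. It also ended with the transcript length trend of abundant genes removed (1.29 ± 0.15, adjusted p = 0.149), with their length and GC trend removed (1.04 ± 0.16, adjusted p = 0.307), and with ribosomal protein genes left out (1.28 ± 0.16, adjusted p = 0.0903). The planned trends over all tested genes gave larger errors, with 1.58 ± 0.44 for length (adjusted p = 0.998) and 1.25 ± 0.44 for length and GC content (adjusted p = 0.9998). In each of these fits 0 of all genes were called, and in those without 1 library at most 3. DESeq2 gave 1.27 (adjusted p = 1.66e-13) and limma-voom 1.26 (adjusted p = 3.08e-05). Of all 50-base windows of the Hsp90aa1 transcript, 58.5% occur unchanged in the transcript of another annotated gene, most of them in Gm12346 and Gm5844, against 4.49% for Hsp90ab1. The sources used here do not say how reads with several matches were counted, so the level of Hsp90aa1 is uncertain.

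**Figure D2:**
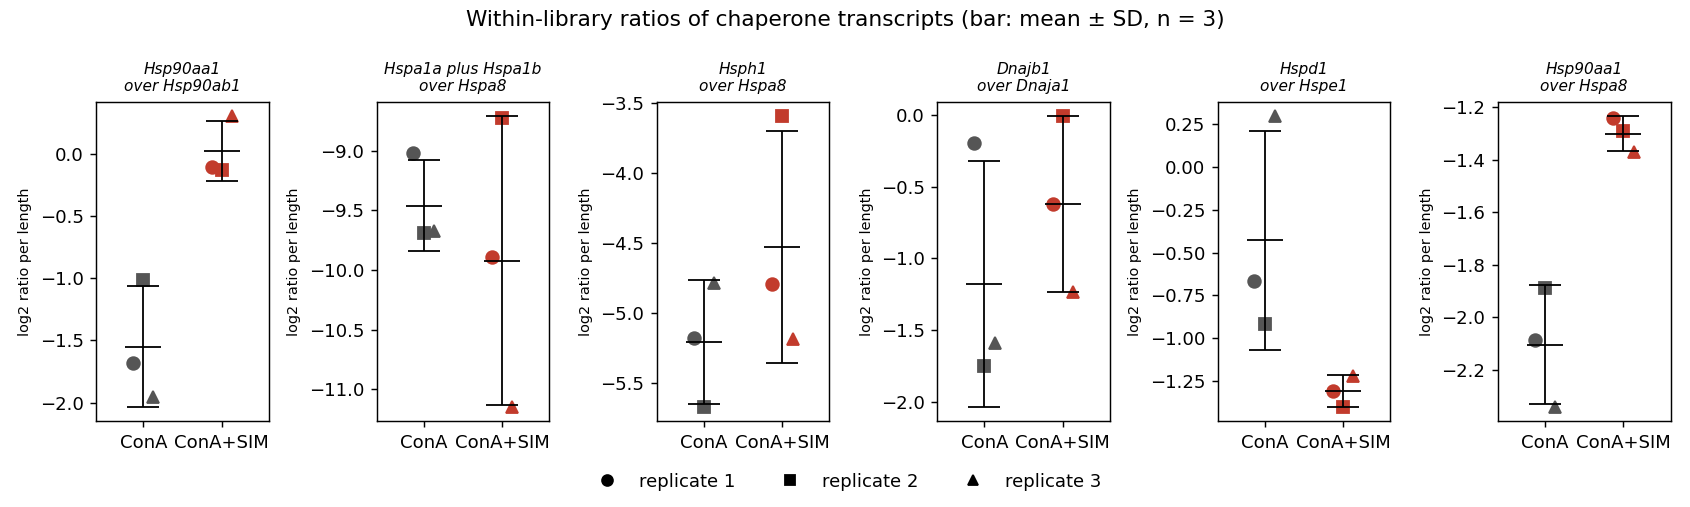
Log2 ratio of chaperone transcripts per length within each library, for ConA (grey) and ConA+SIM (red), with the mean and SD of 3 samples. For Hsp90aa1 over Hsp90ab1 and Hsp90aa1 over Hspa8 the ConA+SIM points lie above all ConA points, for Hspd1 over Hspe1 they lie below, and the other 3 ratios overlap.

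The constitutive HSP70 gene was higher without passing. Hspa8 encodes HSC70, the constitutive cytosolic HSP70 that also uncoats clathrin vesicles (chromosome 9, 40801276 to 40805202, plus strand). It stood at 2598, 2185 and 3256 CPM in ConA and at 3346, 4088 and 3563 CPM in ConA+SIM. The groups did not overlap, but ConA replicate 3 and ConA+SIM replicate 1 were only 89.8 CPM apart. This gap depends on scaling, as the TMM factors were 1.02 to 1.09 in ConA and 0.919 to 0.980 in ConA+SIM. As a share of all counts, without these factors, ConA replicate 3 was above ConA+SIM replicate 1, and the groups overlapped. At 0.45 ± 0.17 the log2 fold change missed the threshold (edgeR, adjusted p = 0.465). Relative to Hspa8, Hsp90aa1 per length was at 0.198 to 0.270 in ConA and 0.386 to 0.423 in ConA+SIM, a log2 difference of 0.80 (exact permutation p = 0.1). Of the Hspa8 windows, 74.8% recur in other annotated genes, the largest share of the 10.

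Hspa1a and Hspa1b encode nearly identical stress-inducible HSP70 proteins (chromosome 17, 34969359 to 34972156 and 34956429 to 34959238, both on the minus strand and 10120 bases apart). The deposited row of Hspa1a held 86, 56 and 92 counts in ConA and 72, 173 and 33 in ConA+SIM, and that of Hspa1b held 53, 7 and 30 counts in ConA and 7, 26 and 2 in ConA+SIM. The groups overlapped for both genes, with log2 fold changes of 0.63 ± 2.15 and -0.93 ± 1.70 (edgeR, adjusted p = 0.999 for each). No direction can be read from SEs of that size, and the direction of Hspa1a turned when ConA+SIM replicate 2 was left out (-0.27).

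The table holds 3 further rows for each of these symbols, marked by a numbered suffix. All 8 rows together held 395, 184 and 392 counts in ConA and 294, 548 and 110 counts in ConA+SIM, or 17.1, 9.27 and 15.4 CPM and 15.7, 32.0 and 5.88 CPM. The highest and the lowest of these sums were both ConA+SIM samples. Summed into 1 row before the fit, they gave a log2 fold change of 0.36 ± 1.42 (edgeR, adjusted p = 0.999). The rows may share reads, since 58.8% of the Hspa1a windows recur in Hspa1b, and how the authors' counting treated such reads was not stated, so these levels are uncertain.

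Hsph1 encodes HSP110, which resets HSP70 as a nucleotide exchange factor and helps it to dissolve aggregates (chromosome 5, 149616843 to 149636498, minus strand). Its values were 114, 68.0 and 187 CPM in ConA and 191, 537 and 155 CPM in ConA+SIM. ConA+SIM replicate 2 was far above all others, and ConA+SIM replicate 3 lay below ConA replicate 3. At 1.26 ± 0.53 the log2 fold change missed the threshold (edgeR, adjusted p = 0.534), and without ConA+SIM replicate 2 it was 0.49. The ratio of Hsph1 to Hspa8 overlapped between groups (log2 difference 0.69, exact permutation p = 0.5). None of the Hsph1 windows recurs in another annotated gene.

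The J-domain partners of HSP70 were both higher in all ConA+SIM libraries than in any ConA library, without passing the test. Dnajb1, which encodes HSP40, the partner of inducible HSP70 (chromosome 8, 83608175 to 83612653, plus strand), stood at 143, 81.5 and 105 CPM in ConA and at 280.0, 498 and 180 (180.5) CPM in ConA+SIM. Its log2 fold change was 1.54 ± 0.40 (edgeR, adjusted p = 0.223). It stood at 1.07 without ConA+SIM replicate 2 and at 1.82 without ConA+SIM replicate 3. Only 0.441% of its windows recur elsewhere.

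Dnaja1 encodes a farnesylated J-domain protein of the cytosol (chromosome 4, 40722468 to 40734965, plus strand). It stood at 185, 309 and 355 CPM in ConA and at 485, 566 and 479 CPM in ConA+SIM. The ConA+SIM samples were close together, and ConA replicate 1 was the lowest. The log2 fold change was 0.85 ± 0.26 (edgeR, adjusted p = 0.351). With transcript length and GC content removed it was 0.47 ± 0.27. The ratio of Dnajb1 to Dnaja1 overlapped between groups (log2 difference 0.56, exact permutation p = 0.4).

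Neither gene of the mitochondrial pair passed (0 of 2). Hspe1, the gene of the HSP10 lid (chromosome 1, 55088148 to 55091317, plus strand), stood at 143, 135 and 87.6 CPM in ConA and at 252, 245 and 207 CPM in ConA+SIM. All ConA+SIM samples were above the ConA samples, at 0.94 ± 0.28 on the log2 scale, which missed the threshold (edgeR, adjusted p = 0.316). Hspd1, the gene of the HSP60 chamber (chromosome 1, 55077833 to 55088243, minus strand), stood at 282, 225 and 337 CPM in ConA and at 319, 291 and 279 CPM in ConA+SIM. Its groups overlapped throughout, with a log2 fold change of 0.076 ± 0.23 (edgeR, adjusted p = 0.999).

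The ratio of Hspd1 to Hspe1 per length was 0.630, 0.531 and 1.23 in ConA and 0.404, 0.379 and 0.430 in ConA+SIM. All ConA+SIM ratios were below the ConA ratios, a log2 difference of -0.88 (exact permutation p = 0.1, adjusted 0.2). The transcripts differ in length, 774 nt for Hspe1 and 2423 nt for Hspd1, and length moved with the groups in these data. With the length trend removed, the difference was -0.37 (exact permutation p = 0.5), and the log2 fold change of Hspe1 was 0.33 ± 0.28. The gene bodies overlap by 96 bases on opposite strands, and the strand setting of the counting is not given. For each of these genes 44.8% of windows recur in other annotated genes.

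**Figure D3:**
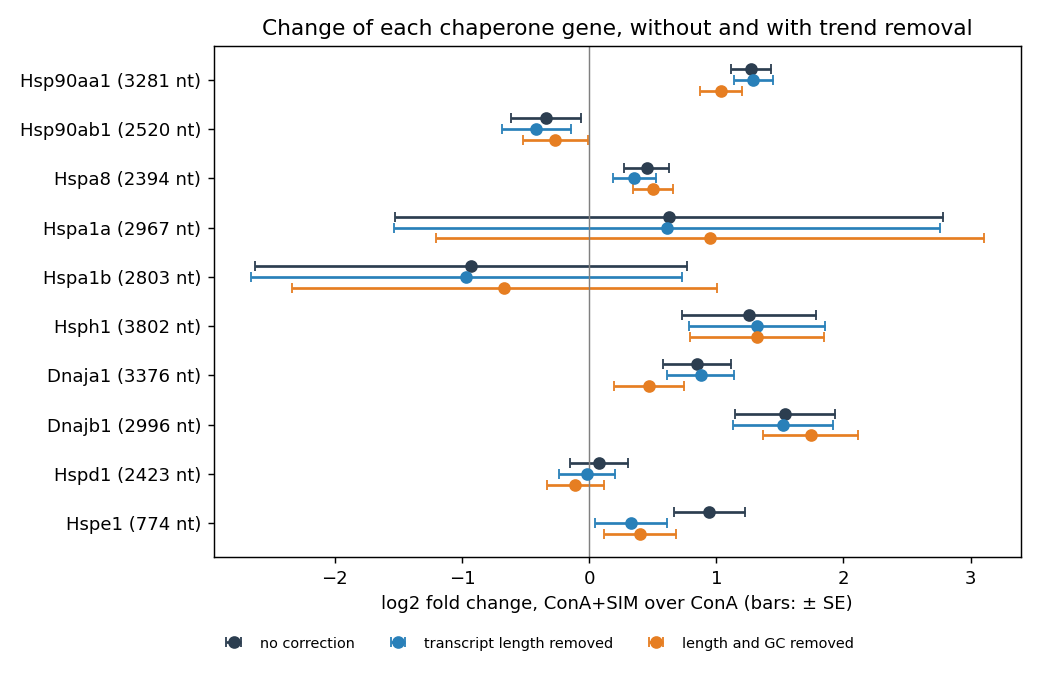
Log2 fold change of each chaperone gene, ConA+SIM over ConA, with its SE, uncorrected and with trends in transcript length, or in length and GC content, removed per library. Hspe1 moves from 0.94 to 0.33 with length removed, whereas Hsp90aa1 stays between 1.04 and 1.29.

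Over all tested genes, short transcripts had higher and long ones lower values in ConA+SIM. The median log2 fold change was 0.46 among the shortest 10% of genes (median 924 nt) and -0.39 among the longest 10% (median 7777 nt). Apart from Hspe1, the chaperone transcripts were 2394 to 3802 nt long, a range of lengths where the medians ran from -0.055 to -0.14. Hsp90aa1 (3281 nt), Dnajb1 (2996 nt), Hsph1 (3802 nt) and Dnaja1 (3376 nt) had values above these medians, and with the length trend removed they stood at 1.29, 1.53, 1.32 and 0.88. Hspe1, at 774 nt, was in the range of the shortest 10%.

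**Figure D4:**
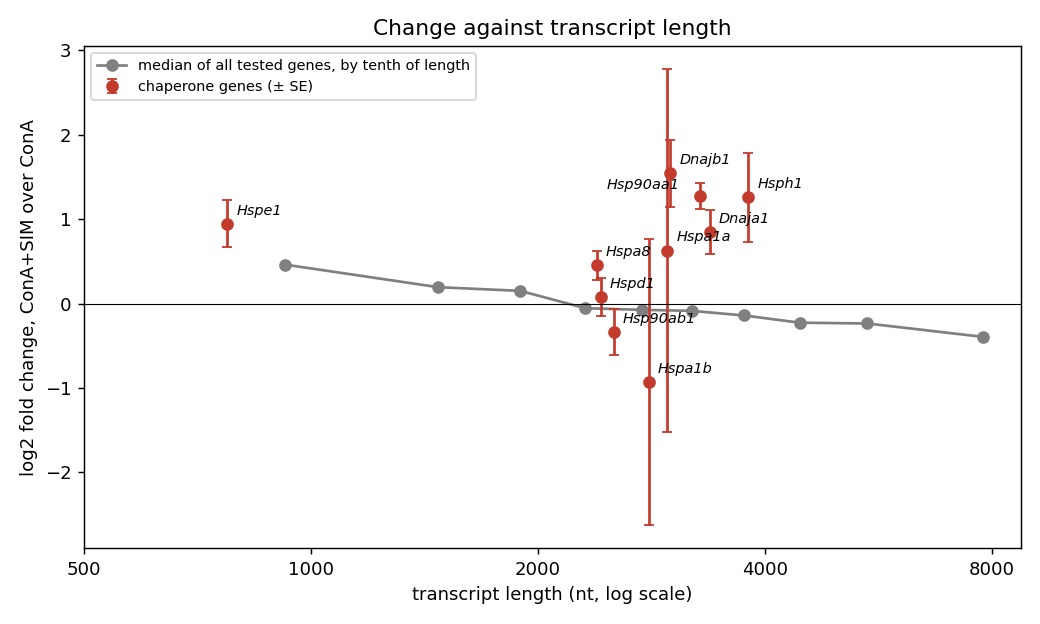
Log2 fold change, ConA+SIM over ConA, against transcript length on a log axis: the grey line joins the medians of all tested genes in 10 bins of length, and red points are the chaperone genes with SE. The grey line falls from 0.46 to -0.39, and Hsp90aa1, Dnajb1, Hsph1 and Dnaja1 stand above it.

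Compared per transcript length, the order of the genes was much the same in both groups. In CPM per kb, Hspa8 was the most abundant in each of the 6 libraries (1119 ± 226 in ConA and 1531 ± 159 in ConA+SIM). Hsp90ab1 followed (786 ± 272 and 622 ± 148), then Hsp90aa1 (257 ± 11.02 and 621 ± 66.4). In ConA this trio was ordered alike in every library, although the ranges of Hspa8 and Hsp90ab1 overlapped across libraries. In ConA+SIM the ranges of the HSP90 genes overlapped, and Hsp90aa1 ranked above Hsp90ab1 in replicate 3. These ranks take the deposited counts as they stand, and they are uncertain for genes with many shared windows, such as Hsp90aa1 and Hspa8. Hspe1 (157 ± 38.6 and 303 ± 31.4), Hspd1 (116 ± 23.1 and 122 ± 8.66) and Dnaja1 (83.8 ± 26.2 and 151 ± 14.4) came next. In ConA the neighbours Hspe1 and Hspd1, and Hspd1 and Dnaja1, overlapped. In ConA+SIM Dnaja1 ranked above Hspd1 in every library. Dnajb1 (36.7 ± 10.4 and 107 ± 54.2) and Hsph1 (32.4 ± 15.8 and 77.4 ± 55.5) overlapped each other in both groups. In ConA+SIM the range of Dnajb1 (60.2 to 166) also took in all of that of Hspd1 and part of that of Dnaja1. Hspa1a and Hspa1b were the lowest 2 rows in every library.

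The libraries of the ConA+SIM group also differed among themselves. ConA+SIM replicate 2 had the highest value of all 6 libraries for 6 of the 10 genes, and ConA+SIM replicate 3 the lowest value of its group for 9 of the 10. ConA replicate 2 had the lowest value of its group for 8 of the 10. Together the 10 genes made up 0.677%, 0.549% and 0.796% of all counts in the ConA libraries and 0.772%, 1.02% and 0.740% of those in the ConA+SIM libraries, and these shares overlapped. On the scaled CPM used elsewhere the sums were 6376, 5073 and 7836 in ConA and 8426, 10442 and 7926 in ConA+SIM, which did not overlap, with ConA replicate 3 and ConA+SIM replicate 3 close to each other. Apart from the scarce Hspa1a and Hspa1b, the spread in ConA+SIM was widest for Hsph1 and Dnajb1, with an SD of 71.7% and 50.9% of the mean, against 10.4% for Hspa8. ConA+SIM replicate 2, where Hsph1 and Dnajb1 peaked, was also the library with the most genes at 0 counts and the lowest sum of Kupffer cell, macrophage and monocyte markers (245 CPM). The part of these differences in its chaperone values was not tested.

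Beyond the 10 genes, 111 genes of the wider chaperone network were listed by role, of which 94 had enough counts to be tested. Of these, 0 rose and 0 fell (edgeR, adjusted p under 0.05), and 9 were higher and 1 lower at an unadjusted p under 0.05, against 5.31% and 3.54% of all tested genes. DESeq2 called 3 higher and 1 lower of 95 with an adjusted p, near its share over all genes (3.31% and 1.84%). The groups did not overlap for 10 genes with higher and 6 with lower values in ConA+SIM, and the median log2 fold change was 0.13. The share without overlap, 10 of 94 higher and 6 of 94 lower, was near that of all tested genes (9.18% and 8.57%).

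Among regulators, Hsf1, the gene of heat shock factor 1 itself, had a log2 fold change of 0.18 ± 0.73, and 0 of 5 tested factors and regulators passed. Of 20 HSP90 co-chaperone genes 10 had higher and 10 lower values. Those with higher values included Chordc1, a co-chaperone gene that responds to heat shock factor 1, at 161, 62.8 and 89.9 CPM in ConA and 177, 191 and 283 CPM in ConA+SIM (log2 fold change 1.05 ± 0.39, edgeR, adjusted p = 0.425). Its groups did not overlap, and ConA replicate 1 was close to the ConA+SIM samples. With length and GC content removed the value was 0.49. Stip1, which links HSP70 to HSP90, and Ahsa1, which speeds the ATPase of HSP90, had log2 fold changes of -0.19 ± 0.27 and -0.043 ± 0.32; both were named after their values were seen.

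Of 7 other HSP70 and HSP110 genes, Hspa5, which encodes the HSP70 of the endoplasmic reticulum, had the smallest p. It stood at 1528, 1428 and 1688 CPM in ConA and at 2095, 2637 and 1822 CPM in ConA+SIM (0.50 ± 0.17, edgeR, adjusted p = 0.398). Of 8 exchange and adaptor factor genes 4 were higher and 4 lower, and St13, the gene of the HSP70-interacting protein HIP, had lower values in every ConA+SIM library (-0.55 ± 0.29, edgeR, adjusted p = 0.69), and stood at -0.36 without ConA+SIM replicate 1. Of 23 other J-domain genes 15 had higher and 8 lower values. Dnajb6, a suppressor of protein aggregation, stood at 83.2, 94.5 and 138 CPM in ConA and at 168, 199 and 216 CPM in ConA+SIM (0.88 ± 0.29, adjusted p = 0.388). Its groups did not overlap, and with length and GC content removed its value was 0.21. Dnajc5, the gene of cysteine string protein, and Dnaja3, the gene of a mitochondrial J-domain protein, had lower values in every ConA+SIM library (-0.58 ± 0.26 and -1.16 ± 0.60, adjusted p = 0.585 and 0.683).

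Of 13 genes of the TRiC chaperonin, which folds actin and tubulin, and of prefoldin, which feeds it, 10 had higher and 3 lower values. Pfdn1, a prefoldin subunit, stood at 16.3, 14.8 and 50.2 CPM in ConA and at 93.1, 96.1 and 71.1 CPM in ConA+SIM (1.68 ± 0.57, edgeR, adjusted p = 0.392). Without ConA replicate 3 its log2 fold change was 2.51. Cct3, a TRiC subunit, had a log2 fold change of -0.69 ± 0.37 with overlapping groups (adjusted p = 0.696), which ran from -0.45 without ConA+SIM replicate 1 to -1.16 without ConA+SIM replicate 3. Of 10 genes of mitochondrial protein quality control 7 had higher and 3 lower values, and Clpx, the unfoldase of a matrix protease, was at 46.9 to 49.3 CPM in ConA and at 127, 129 and 61.4 CPM in ConA+SIM (1.13 ± 0.40, adjusted p = 0.404). With length and GC content removed, the values of Pfdn1 and Clpx were 1.33 and 0.90.

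Of 8 small heat shock protein genes 1 could be tested, Hspb6, with overlapping groups. Of 7 other genes known to be induced by heat shock factor 1, 1 had a higher and 6 lower values, with a median of -0.54. Among all tested genes 48% had higher and 52% lower values. Of the 7 genes 0 passed, and the groups did not overlap for 1 higher and 1 lower gene.

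**Figure D5:**
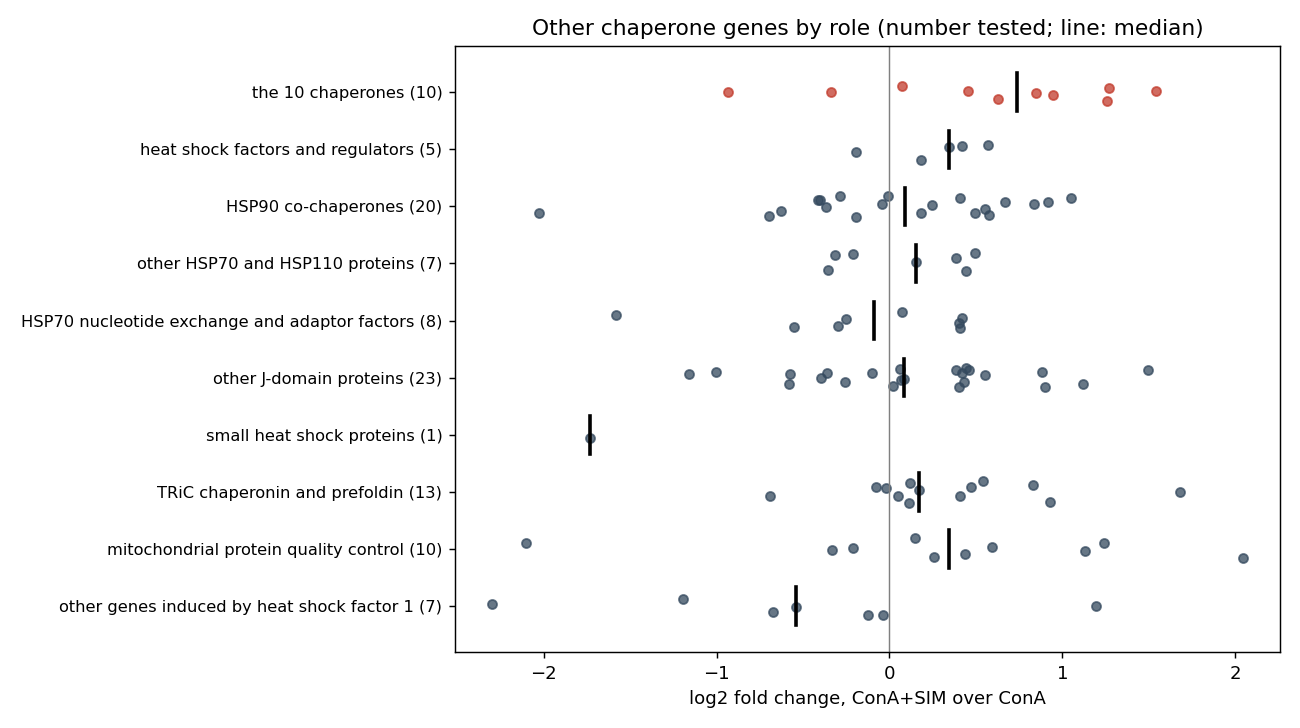
Log2 fold change, ConA+SIM over ConA, of the 10 chaperone genes (red) and of 94 tested genes of the wider network by role (dark), with the number tested in brackets and the median as a black line. The median is 0.74 for the 10 genes and lies between -0.54 and 0.35 for the lists with more than 1 tested gene.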

How the data were processed

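RNA sequencing libraries of sorted liver CD4+ T cells, 3 per group, were compared. The authors deposited unnormalized whole-number counts for each gene. Alignment software HISAT2 2.1.0 and build GRCm38 are named in the submitters' processing notes. For the counting tool, strand setting and reads with several matches, the sources used here give nothing. Each column carries the title of 1 sample, and 0 columns were left unused.

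Genes were kept with filterByExpr, scaled by TMM and tested over all genes with the robust quasi-likelihood F test of edgeR 4.0.16 (R 4.3.3), ConA+SIM over ConA, with Benjamini-Hochberg adjustment and a threshold of 0.05. CPM is relative to the TMM-scaled total. The members, lists and naming rule (all 10 members, and of the network genes past the threshold and the 5 with the smallest p each way) were chosen with earlier results of these data known; the small number of network genes outside this rule (Hsf1, Stip1, Ahsa1, Hspb6) was named after values were seen, and 1 gene that the rule names is not reported here. Ratios were taken within libraries on counts plus 0.5, per length, with exact permutation tests. Lengths are of 1 GENCODE M21 transcript per gene (98.4% of tested genes). The length offsets quoted in the text were fitted on the more abundant 50% of tested genes, which was chosen after seeing the data. The scripts were tested on simulated data. Of 200 genes changed 4-fold there, 10.5% were recovered, and 19.8% of those among the more abundant 50%. A gene that was not called may therefore still have changed.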

Additional observations from a re-analysis of the deposited data

How the results depend on the processing

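The count of chaperone genes called higher, 1 in the reported fit, was 0 with the replicate block, the transcript length correction, the length and GC correction, both of these corrections fitted on abundant genes (added after seeing the data) and ribosomal protein genes left out; 0 genes of any kind were called in these settings. It was 4 with DESeq2 (Hsp90aa1, Dnaja1, Dnajb1 and Hspe1, the last 3 at adjusted p = 0.0186, 9.00e-04 and 0.0262), which called 345 genes higher and 192 lower in all. It was between 0 and 0 over the 6 fits that each left out 1 library, which called 0 genes in all, or 3 without ConA+SIM replicate 3. It was 1 with RLE scaling, no filter, 5 CPM in 3 libraries, limma-voom with and without quality weights, and copies summed. In the network lists DESeq2 called 3 genes higher and 1 lower, near its shares over all genes (3.31% and 1.84%), where the reported fit called 0 and 0.

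The log2 fold change of Hsp90aa1 was positive in all 19 alternatives (1.04 to 1.58; adjusted p from 1.66e-13 to 0.9998). Directions reversed for Hsp90ab1 with length and GC correction (0.047), for Hspa1a with quality weights (-0.14) and over the left-out libraries (-0.27 to 1.04), and for Dnajc5 with length and GC correction (0.10). For Hspd1 they reversed with the corrections fitted on abundant genes (-0.017 for length and -0.11 for length and GC) and over the left-out libraries (-0.077 to 0.25). The log2 ratio of Hspa1a plus Hspa1b over Hspa8 ran from -1.06 to 0.15 over the left-out libraries. The planned length correction moved the median of all genes from -0.041 to 0.10.

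Same-numbered samples did not deviate together (correlations 0.011, 0.0088 and 0.033), and differently numbered ones gave -0.038 to 0.018. These values show no sign of pairing, but near-zero correlations of noisy values cannot exclude it, and the labels do not state it. With the replicate block 0 genes were called, and Hsp90aa1, the only chaperone gene called in the reported fit, stood at 1.27 (edgeR, adjusted p = 0.285). The low counts of Hspa1a and Hspa1b and the spread between samples limit what could be called.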
